A study of Homo sapiens with 42 samples.

Results

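The replication-dependent histone genes are the intron-poor genes, gathered in a few clusters, that supply the bulk of the histones laid onto newly copied DNA. Members were all genes measured through an array entry with 1 gene symbol whose current name begins with H2AC, H2BC, H3C or H4C and a number, or is one of H1-1 to H1-5, with the brightest entry kept for each gene. The rule gave 56 genes of the 18404 measured, of which 5 encode linker histone H1, 14 H2A, 17 H2B, 8 H3 and 12 H4. Of these, 55 are protein coding and 1, H2BC19P, is annotated as a pseudogene. The cluster on chromosome 6 holds 48 members, those on chromosome 1 hold 5 and 2, and H4C16 lies alone on chromosome 12. Another 15 symbols of the same families occur only in array entries shared by several symbols and were not used.

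The arrays came from 2 human lung cancer lines. H460 is a large-cell lung carcinoma line that the study calls radiosensitive, and H1299 is a non-small-cell lung carcinoma line that it calls radioresistant. Cells growing exponentially received 2 Gy of gamma radiation, and RNA was taken before irradiation (0 h, 6 arrays a line) and 2, 4, 8, 12 and 24 h after it (3 arrays a line and time), as 42 arrays in 12 groups labelled as biological replicates. The protocol mentions unirradiated cells kept for the same periods, but no array is labelled as unirradiated later than 0 h, so the effect of the dose and that of hours in culture cannot be told apart. Each line is a single established line, and the labels do not say whether replicates came from separate cultures, so p-values measure the spread between these arrays. The study's stated question was which genes follow different time courses in the radioresistant and the radiosensitive line.

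Core histones H2A, H2B, H3 and H4 form the protein spool of the nucleosome, and linker histone H1 binds the DNA entering and leaving it. Their replication-dependent genes are transcribed in S phase, when cyclin E-CDK2 phosphorylates the co-activator NPAT at histone locus bodies, and their messages end in a stem-loop bound by SLBP (stem-loop binding protein) in place of a poly(A) tail. When DNA synthesis slows or stops, these messages are degraded within a short time, which keeps histone supply matched to DNA. The labelling used here primes along the whole transcript, so messages without a poly(A) tail are copied too. In bulk RNA, fewer cells in S phase and less histone message per cell in S phase cannot be told apart. Coding sequences within a class are nearly identical, and how far a probe set also binds the message of another member was not examined here, so members of a class are not independent readings.

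The promoters of members named most in the results below are printed because histone promoters are known to carry recurring short elements, some of them typical of a class. Each line gives the 180 bases before the annotated start, read 5′ to 3′ on the gene's own strand, from RefSeq (GRCh38.p14). Capitals mark the TATA box (TATAAA), the CCAAT box (CCAAT), the octamer (ATTTGCAT, typical of H2A and H2B genes), the H1 box (AAACACA) and a letter run typical of H4 promoters (GGTCCG), each on either strand. H1-5 and H1-3 are shown as the linker genes that fell furthest in H460 at 12 h, H2AC21, H2BC14, H3C2 and H4C14 as the members of their classes that did so, and H2BC21 as an H2B gene that did not follow.
H1-5 (chr6:27867589-27867768, minus strand): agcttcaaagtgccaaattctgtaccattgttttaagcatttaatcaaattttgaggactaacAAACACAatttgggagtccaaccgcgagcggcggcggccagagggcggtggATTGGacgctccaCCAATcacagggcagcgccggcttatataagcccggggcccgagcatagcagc
H1-3 (chr6:26234988-26235167, minus strand): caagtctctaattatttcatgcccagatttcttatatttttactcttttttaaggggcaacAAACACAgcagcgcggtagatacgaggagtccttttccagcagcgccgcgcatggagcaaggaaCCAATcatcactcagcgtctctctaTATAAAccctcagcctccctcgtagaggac
H2AC21 (chr1:149887966-149888145, minus strand): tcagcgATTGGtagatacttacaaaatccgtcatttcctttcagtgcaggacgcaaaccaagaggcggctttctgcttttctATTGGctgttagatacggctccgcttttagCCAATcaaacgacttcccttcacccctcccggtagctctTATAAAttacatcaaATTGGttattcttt
H2BC14 (chr6:27814842-27815021, plus strand): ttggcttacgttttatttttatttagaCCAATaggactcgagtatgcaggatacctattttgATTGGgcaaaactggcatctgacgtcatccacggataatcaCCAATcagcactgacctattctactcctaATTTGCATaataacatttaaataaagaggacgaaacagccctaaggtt
H3C2 (chr6:26032100-26032279, minus strand): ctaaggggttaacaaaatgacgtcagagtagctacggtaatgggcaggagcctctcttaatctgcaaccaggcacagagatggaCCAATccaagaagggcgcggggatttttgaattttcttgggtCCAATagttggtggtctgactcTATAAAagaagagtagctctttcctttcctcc
H4C14 (chr1:149832477-149832656, plus strand): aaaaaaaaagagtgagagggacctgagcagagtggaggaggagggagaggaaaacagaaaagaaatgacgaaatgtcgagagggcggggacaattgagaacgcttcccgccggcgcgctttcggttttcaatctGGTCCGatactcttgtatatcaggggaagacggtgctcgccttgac
H2BC21 (chr1:149886683-149886862, minus strand): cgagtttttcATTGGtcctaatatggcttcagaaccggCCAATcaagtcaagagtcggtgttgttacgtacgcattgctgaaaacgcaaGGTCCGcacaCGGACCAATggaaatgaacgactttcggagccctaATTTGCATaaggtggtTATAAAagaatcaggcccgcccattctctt

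In the H2BC21 window a reverse-strand GGTCCG overlaps a CCAAT box, so the capitals run together there. Promoter entries were matched for 50 of the 56 members, and motifs were searched in the 250 bases before the start, in these and in all 27305 promoters of the table. The TATA box letters occurred in 34 of the 50 (68.0%, against 11.1% of all promoters), and the CCAAT box in 43 (86.0%, against 33.0%). The CCAAT box was in every H1, H2A, H2B and H3 window but in 3 of 10 H4 windows (30.0%). The octamer occurred in 10 of 13 H2A windows (76.9%) and 13 of 16 H2B windows (81.2%), in 0 windows of the other classes, and in 1.66% of all promoters. The H1 box was in all 5 H1 windows and in 0 of the other 45, against 4.95% of all promoters. The run GGTCCG, which was added after the windows had been seen, was in 9 of 10 H4 windows (90.0%), in each with its first base 44 to 46 bases before the start, and in 9.33% of all promoters. It was absent from the window of H4C7, and it also occurred in 1 of 13 H2A, 1 of 16 H2B and 1 of 6 H3 windows. The H2A and H2B windows were those of the head-to-head genes H2AC20 and H2BC21, which share the same stretch. A match describes these letters and does not show that a factor binds there.

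Values are the deposited log2 expression values, and a gene was called when its adjusted p (limma, Benjamini-Hochberg over all 18404 genes) was under 0.05. Array medians lay between 5.97 and 6.18, but the width of the arrays, taken as the interquartile range of all genes, differed between groups. In H460 it averaged 3.34 at 0 h, 2.84 at 2 h, 3.34 at 4 h and 3.64 to 3.67 from 8 to 24 h. In H1299 it averaged 3.58 at 0 h and 3.53 to 3.82 afterwards, and replicate 2 at 0 h was narrower (3.24) than the other 5 arrays of its group (3.57 to 3.69). Array width was added to the model as another setting. For single named members its effect is given where it ends a 12 h call, and at other times mainly by counts of members. At 0 h the simple keratins KRT8 and KRT18 both averaged 12.18 in H460 and 10.81 and 12.12 in H1299, while EPCAM (3.97 and 3.67) and CDH1 (3.78 and 3.71) lay near the low end of the scale in both lines. The other epithelial markers were KRT19 (11.36 in H460 and 5.23 in H1299) and KRT7 (6.73 and 5.46). The 6 leukocyte markers measured averaged from 2.66 (PTPRC in H1299) to 9.0 (CD68 in H1299), with CD3E at 3.85 and 3.58 and CD14 at 5.93 and 4.77. The 7 fibroblast markers averaged from 2.47 (LUM in H1299) to 6.72 (COL1A1 in H460), with DCN at 2.97 and 2.92 and COL3A1 at 6.13 and 5.14.

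In H460 histone genes of every class were lower at 12 h, and fewer members were below their 0 h level at 24 h. At 12 h 41 of the 56 members were lower than at 0 h and 1 was higher, where 16.8% of all genes were lower and 16.7% higher. The median change of the members was -0.74 on the log2 scale, against -0.04 for all genes tested. Of the 41, 23 were lower by at least 2-fold, and in 35 the 12 h arrays lay wholly below the 0 h arrays. Neither count was made over all genes. At 2 h 2 members were lower and 0 higher (23.7% and 16.7% of all genes), at 4 h 0 and 0 (1.55% and 1.37%), and at 8 h 7 and 2 (6.22% and 10.7%). At an unadjusted p under 0.05 in limma, 10 of the 56 members were higher and 0 lower at 4 h. Of all 18404 genes, 3324 passed that unadjusted threshold at 4 h in either direction, a share near that of the members. At 24 h 13 members were lower than at 0 h and 7 higher (12.4% and 16.2%), with a median of -0.06 against -0.05 for all genes. The share of members higher at 24 h was below that of all genes.

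**Figure D1:**
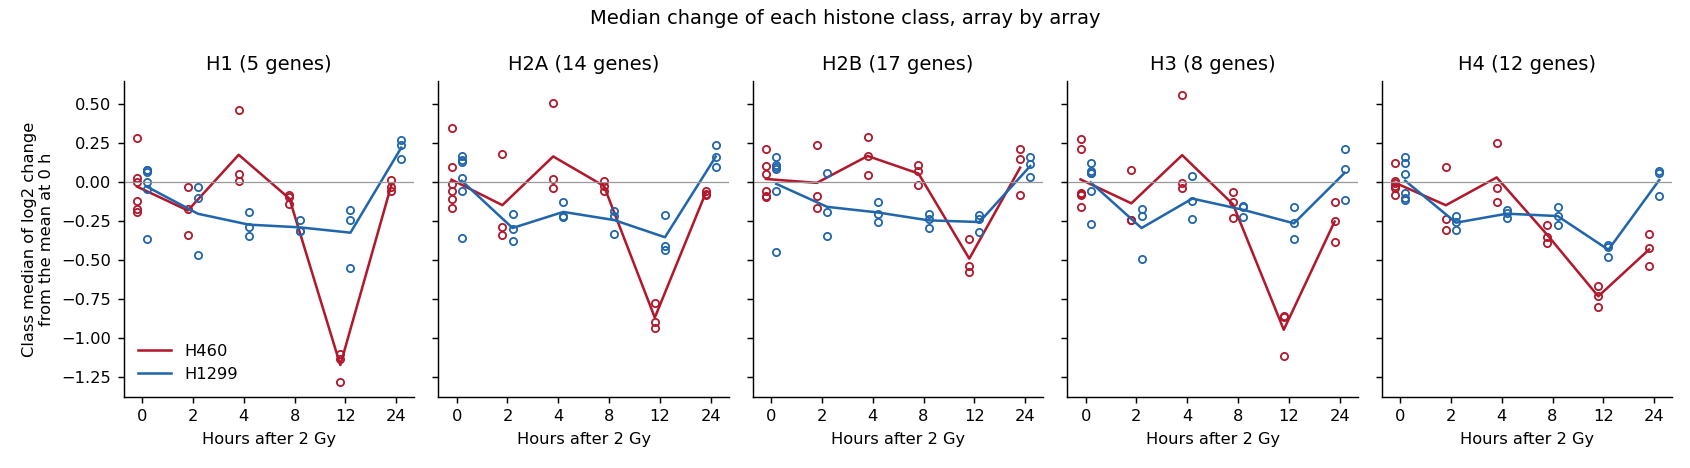
Median change of each histone class from the line's 0 h mean (log2, vertical axis) at 0, 2, 4, 8, 12 and 24 h (evenly spaced on the horizontal axis) in H460 and H1299. Each point is 1 array and lines join the means of the arrays. In H460 the 12 h arrays of the H1 class lie between -1.29 and -1.11 and those of H2B between -0.58 and -0.37, and all classes lie below 0 there.

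The linker histone class was the only one with every member called lower at 12 h in H460. All 5 H1 genes were lower (median change -1.18, from -1.67 to -0.41). Of the 14 H2A genes, 10 were lower (median -0.95), and of the 8 H3 genes 6 were lower (median -0.92). H4 had 10 of 12 lower (median -0.66), with the widest span downward, to -2.05. H2B had 10 of 17 lower and the median nearest to 0 (-0.42), and it was the class that held the 1 member that rose. The order of the class medians depended on dim members: without the dimmest 33.3% of genes, which leaves 43 members, the medians were -1.30 for H4, -1.36 for H1, -1.35 for H3 and -1.08 for H2A. Called falls at a low level included H1-1 (0 h mean 4.15 in H460), H2AC1 (3.73), H3C3 (3.89), H3C11 (4.32), H4C6 (4.40), H4C7 (3.70) and H4C13 (3.06). Of the 28 members dimmer by mean at 0 h, 18 were lower at 12 h in H460 (median -0.41) and 5 in H1299. Of the 28 brighter members 23 were lower in H460 (median -1.20) and 24 in H1299. The difference between classes was not tested.

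H1-5, one of the somatic linker histones, gave in H460 at 0 h a lowest, median and highest value of 10.15, 10.56 and 11.06. At 2 h its arrays read 10.54, 9.87 and 10.50, at 4 h 10.79, 11.12 and 10.54, and at 8 h 10.56, 10.44 and 10.47. At 12 h they read 8.82, 8.91 and 8.85, and at 24 h 10.33, 10.54 and 10.56. The 12 h arrays stood well below every other array of the line, and at 24 h the gene was back inside its 0 h range. The 12 h change was -1.67 ± 0.16 (SE), a 3.18-fold lower level (limma adjusted p = 6e-08). H1-3, another somatic linker histone, ran 8.05, 8.35 and 8.54 (lowest, median, highest) at 0 h, 7.95, 8.08 and 8.17 at 2 h and 8.37, 8.78 and 8.53 at 4 h. It was still at 8.23, 8.12 and 8.10 at 8 h, dropped to 6.74, 6.84 and 6.72 at 12 h and returned to 8.15, 8.30 and 8.22 at 24 h. Only the 12 h arrays lay outside the range of the rest by a wide step, with a change of -1.55 ± 0.11 (adjusted p = 7e-10). H1-4 and H1-2 fell by 1.18 and 1.06, and H1-1 by 0.41.

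H2AC21 lies in the chromosome 1 cluster that holds 5 members and had the largest fall of the H2A class. In H460 its lowest, median and highest values at 0 h were 10.93, 11.45 and 11.71, and its arrays read 11.29, 11.63 and 12.03 at 2 h and 11.66, 11.98 and 11.84 at 4 h. At 8 h they read 10.67, 10.69 and 10.75, at 12 h 9.53, 9.44 and 9.32, and at 24 h 10.85, 11.06 and 10.92. The gene was thus already below its 0 h range at 8 h, lowest at 12 h, and overlapped the 0 h range again at 24 h while its mean stayed lower. The change was -0.67 at 8 h (adjusted p = 0.0032), -1.94 ± 0.14 at 12 h (3.83-fold lower, adjusted p = 9.2e-10) and -0.43 at 24 h (adjusted p = 0.027). The other 9 H2A genes called at 12 h fell by between 0.39 (H2AC1) and 1.66 (H2AC4). H2AC14, read near the low end of the scale, had 0 h values of 3.59, 4.01 and 4.27 (lowest, median, highest) and 12 h values of 2.38, 3.47 and 2.68. Its 12 h arrays were apart from one another but all below 0 h, a change of -1.14 ± 0.20 (adjusted p = 0.00022). Its arrays at the other times were 3.44, 3.39 and 3.64 at 2 h, 3.96, 4.67 and 4.55 at 4 h, 4.33, 4.18 and 3.94 at 8 h and 3.34, 3.88 and 4.12 at 24 h, of which the 24 h arrays spread across the 0 h range and below it.

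H2BC14 had the largest fall among the H2B genes. Its H460 values at 0 h were 11.51, 11.74 and 11.92 (lowest, median, highest), followed by 12.10, 11.38 and 12.13 at 2 h and 11.85, 12.07 and 11.90 at 4 h. At 8 h the arrays read 11.71, 11.76 and 11.72, at 12 h 10.01, 10.16 and 9.92, and at 24 h 11.30, 11.42 and 11.39. All 3 arrays at 8 h were inside the 0 h range, all 3 at 12 h far below it, and all 3 at 24 h just below it. The 12 h change was -1.70 ± 0.12 (3.25-fold lower, adjusted p = 9.2e-10), and the 24 h change was -0.36 ± 0.12 (adjusted p = 0.032). H2BC9 and H2BC4 fell by 1.53 and 1.22 at 12 h, and the other 7 called H2B genes by 0.37 to 0.93. H2BC10 was read at 3.29, 3.96 and 4.06 at 0 h (lowest, median, highest), at 3.57, 4.00 and 3.74 at 2 h, at 3.89, 4.02 and 3.90 at 4 h and at 3.61, 4.01 and 3.75 at 8 h. At 12 h it gave 3.23, 3.41 and 3.33 and at 24 h 3.51, 3.18 and 3.15. The late arrays lay near the lowest 0 h array and below the other 5, with changes of -0.55 ± 0.15 at 12 h (adjusted p = 0.0067) and -0.59 ± 0.15 at 24 h (adjusted p = 0.0041). Adding array width as a covariate, the 12 h change was -0.43 and was not called, and it was -0.41 and not called against 0 h replicates 1 to 3 only.

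H3C2 led the H3 genes. In H460 it was at 9.56, 9.73 and 10.14 (lowest, median, highest) at 0 h, at 9.47, 9.58 and 10.16 at 2 h and at 9.66, 10.26 and 9.87 at 4 h. Its arrays then read 9.55, 9.47 and 9.48 at 8 h, 7.95, 8.29 and 7.73 at 12 h and 9.30, 9.52 and 9.42 at 24 h. The 12 h arrays were the only ones more than 1 log2 unit under the 0 h range, and the 8 and 24 h arrays sat at or just under its lower edge. The changes were -1.82 ± 0.15 at 12 h (3.54-fold lower, adjusted p = 4.4e-09) and -0.40 at 24 h (adjusted p = 0.046). H3C12, H3C1 and H3C7 fell by 1.50, 1.39 and 1.30 at 12 h, and H3C11 and H3C3 by 0.54 and 0.47. The other H3 genes were H3C8 (-0.23) and H3C10 (0.21), neither called.

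H4C14, another gene of that chromosome 1 cluster, had the largest fall of all members. Its H460 values at 0 h were 10.15, 10.30 and 10.59 (lowest, median, highest), with 10.03, 10.28 and 10.97 at 2 h and 10.42, 11.05 and 10.58 at 4 h. At 8 h the arrays gave 9.35, 9.24 and 9.46, at 12 h 8.32, 8.22 and 8.29, and at 24 h 9.40, 9.67 and 9.26. From 8 h on no array reached the 0 h range, and the 24 h arrays were back only to the level of 8 h. The changes were -0.98 ± 0.15 at 8 h (adjusted p = 0.00019), -2.05 ± 0.15 at 12 h (4.13-fold lower, adjusted p = 1.2e-09) and -0.88 at 24 h (adjusted p = 0.00012). The 8 h call was lost with array width in the model, where 0 members were lower at 8 h. H4C2, H4C1, H4C4 and H4C3 fell by 1.72, 1.55, 1.50 and 1.10 at 12 h, and H4C5, H4C9, H4C6, H4C7 and H4C13 by 0.75 to 0.38. H4C8 and H4C16 were not called.

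**Figure D2:**
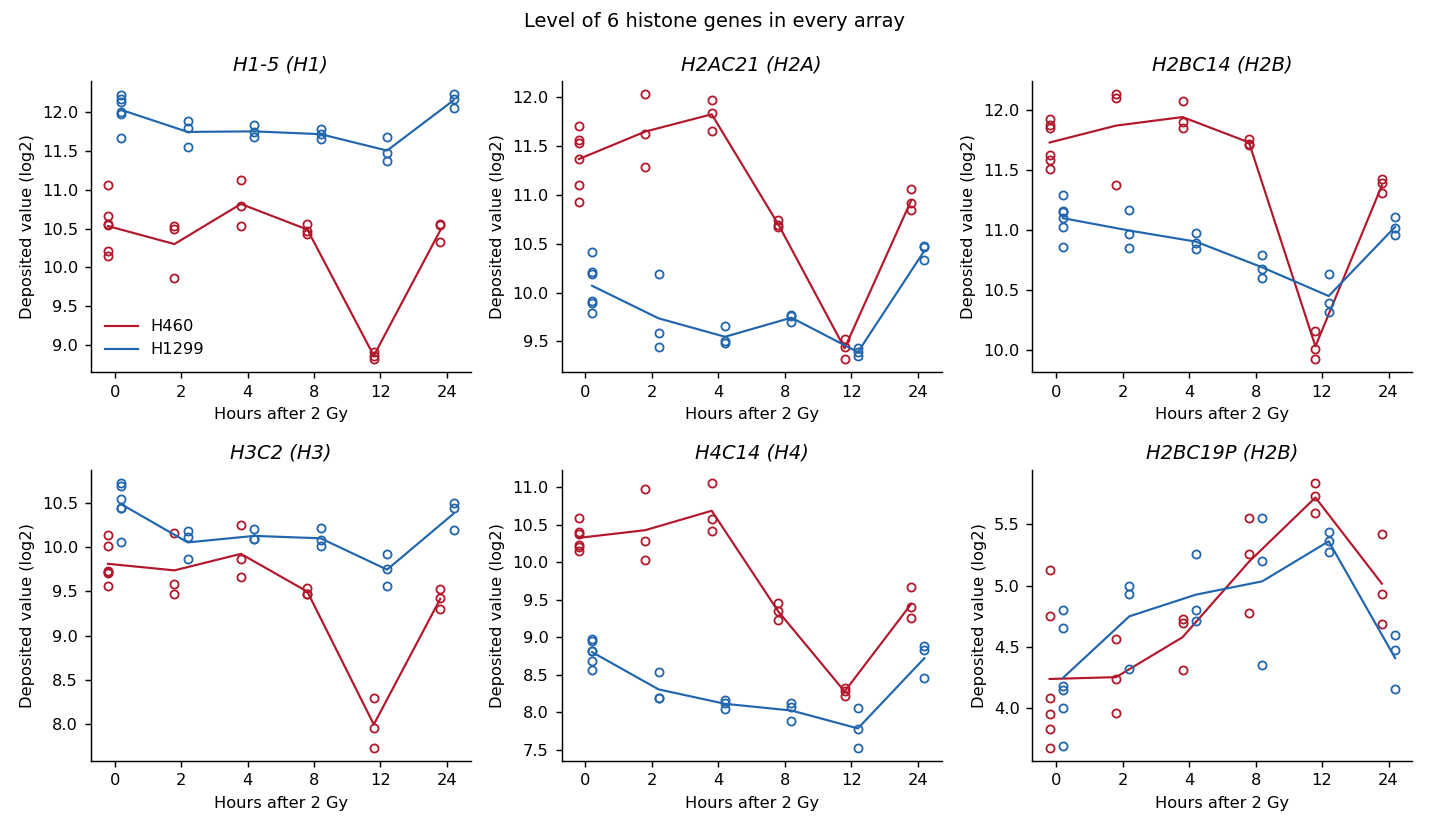
Deposited log2 value (vertical axis) of the member with the largest 12 h fall in H460 in each class and of H2BC19P, the member that rose, at each time (evenly spaced on the horizontal axis), with 1 point an array and lines through the group means, for H460 and H1299. H4C14 in H460 stands between 8.22 and 8.32 at 12 h, against 10.15 to 10.59 at 0 h.

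The step down fell between 8 and 12 h. Set directly against 8 h, 25 members were lower at 12 h and 0 higher, where 0.239% of all genes were lower and 0.0435% higher. Only 44 genes of the whole table were lower in this comparison, so 25 of 44 (56.8%) were histone genes. By class these were 4 H1, 8 H2A, 5 H2B, 4 H3 and 4 H4 genes. The changes from 8 to 12 h were -1.63 for H1-5 (adjusted p = 1.3e-05), -1.39 for H1-3, -1.27 for H2AC21, -1.70 for H2BC14, -1.51 for H3C2 and -1.07 for H4C14. The step up came between 12 and 24 h, where 27 members were higher and 0 lower (1.31% and 0.636% of all genes). These were 27 of the 242 genes that rose in that comparison (11.2%), with 4 H1, 9 H2A, 5 H2B, 4 H3 and 5 H4 genes among them. The rises were 1.61 for H1-5 (adjusted p = 7.8e-06), 1.51 for H2AC21, 1.34 for H2BC14, 1.42 for H3C2 and 1.16 for H4C14. Both comparisons use the 12 h arrays, so a gene read low on those 3 arrays enters both.

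H4 was the class with most members lower on either side of 12 h. At 8 h 6 of 12 H4 genes were lower than at 0 h (H4C14 -0.98, H4C1 -0.73, H4C2 -0.56, H4C6 -0.51, H4C5 -0.39 and H4C3 -0.33), while the other classes together had 1 lower member, H2AC21. Median changes at 8 h were -0.34 for H4, -0.21 for H3, -0.15 for H1, -0.03 for H2A and 0.09 for H2B. At 24 h 8 of 12 H4 genes were lower, by 0.39 (H4C6) to 0.88 (H4C14), with a class median of -0.43. The medians of the other classes then lay between -0.29 (H3) and 0.18 (H2B), and their 5 lower members were H2AC21, H2BC10, H2BC14, H3C2 and H3C8. These counts moved with array width: with width in the model 0 members and 0 H4 genes were lower at 8 h, 4 members and 2 H4 genes at 24 h, and 6 H4 genes at 12 h. The share of all genes called with width in the model is not given here. Without H460 8 h replicate 1 or 2 there were 3 H4 genes at 8 h and 4 members, and without any one 24 h array there were 7 or 8 members at 24 h, with 4 H4 genes where it was replicate 1. The early count was just as dependent on single arrays, since the 2 members lower at 2 h (H3C1 -0.61 and H4C4 -0.94) became 9 without 2 h replicate 3 and 1 without 2 h replicate 1.

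A few members went the other way in H460. H2BC19P, the H2B pseudogene in the chromosome 1 cluster, read 3.68, 4.02 and 5.13 at 0 h (lowest, median, highest), 4.24, 4.57 and 3.96 at 2 h and 4.70, 4.73 and 4.31 at 4 h. It then read 5.55, 4.78 and 5.26 at 8 h, 5.73, 5.84 and 5.59 at 12 h and 4.94, 5.42 and 4.69 at 24 h. All 3 arrays at 12 h were above every 0 h array, whereas those at 8 and 24 h overlapped them. The changes were 0.96 at 8 h (adjusted p = 0.0097), 1.48 ± 0.24 at 12 h (2.79-fold higher, adjusted p = 9.8e-05) and 0.78 at 24 h (adjusted p = 0.018). H2BC12, a gene with an annotated span of 8566 bases, rose by 0.56 at 8 h and 0.64 at 24 h, and its 12 h change of 0.41 was not called. Across settings 0 to 2 members were called higher at 8 h. The other H2B genes that were not lower at 12 h included H2BC5 (0.37), H2BC21 (0.12) and H2BC26 (0.04). The other members with a long annotated span were H2BC4 (10757 bases), which fell at 12 h (-1.22), and H2BC5 (13229 bases) and H2BC21 (2224 bases), which were not called.

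At 24 h 7 members were above their 0 h level in H460, but with array width in the model 0 were called, after quantile normalization 4 and against 0 h replicates 4 to 6 only 3. Leaving out 24 h replicate 2 left 1 and leaving out replicate 3 left 4. H1-2 read 7.70, 7.80 and 8.56 at 0 h (lowest, median, highest), 7.50, 7.53 and 8.12 at 2 h, 8.05, 8.52 and 8.03 at 4 h, 8.08, 8.09 and 8.11 at 8 h, 6.85, 7.06 and 6.68 at 12 h and 8.25, 8.66 and 8.36 at 24 h. Its 24 h arrays overlapped a single high 0 h array, and the change was 0.51 ± 0.16 (adjusted p = 0.023) after a 12 h change of -1.06 ± 0.16 (adjusted p = 5.4e-05). H2AC6 read 6.86, 7.24 and 7.57 at 0 h, 7.16, 7.26 and 7.63 at 2 h, 7.58, 7.80 and 7.52 at 4 h, 7.25, 7.32 and 7.29 at 8 h, 6.42, 6.35 and 6.48 at 12 h and 7.56, 7.66 and 7.56 at 24 h, so it passed from below its 0 h range to the top of it (-0.81 at 12 h, 0.37 ± 0.12 at 24 h, adjusted p = 0.03). H2AC25, of the chromosome 1 cluster that holds 2 members, read 6.31, 6.66 and 7.30 at 0 h, 6.38, 6.42 and 6.84 at 2 h, 6.28, 7.56 and 6.72 at 4 h, 6.97, 6.97 and 7.0 at 8 h, 6.60, 6.96 and 6.42 at 12 h and 7.45, 7.16 and 7.42 at 24 h. It stayed within the 0 h range at 12 h (-0.03, not called, and from -0.49 to 0.03 across settings) and lay at its upper edge at 24 h (0.65 ± 0.20, adjusted p = 0.018). H3C10 read 7.17, 7.52 and 7.89 at 0 h, 7.38, 7.26 and 7.85 at 2 h, 7.68, 8.80 and 7.80 at 4 h, 7.74, 7.80 and 7.93 at 8 h, 7.69, 7.72 and 7.82 at 12 h and 7.98, 8.21 and 8.06 at 24 h, where all 3 arrays were above 0 h (0.55 ± 0.18, adjusted p = 0.027). H4C16, the lone chromosome 12 gene, read 3.36, 3.51 and 3.96 at 0 h, 3.90, 3.46 and 3.72 at 2 h, 3.54, 4.19 and 3.55 at 4 h, 3.79, 3.90 and 3.76 at 8 h, 3.56, 3.90 and 3.81 at 12 h and 4.04, 4.20 and 3.94 at 24 h. It overlapped 1 high 0 h array (0.51 ± 0.15, adjusted p = 0.011). H2BC12 and H2BC19P were the other members higher at 24 h. Counting both lines and all 5 times, 12 members were never called lower than at 0 h: H2AC11, H2AC13, H2AC17, H2AC25, H2BC1, H2BC5, H2BC12, H2BC17, H2BC19P, H2BC26, H3C10 and H4C16. The same count was not made over all genes. Among the 12, H2AC13 (0 h means of 2.40 in H460 and 2.62 in H1299) and H2BC1 (2.99 and 2.89) lay near the low end of the scale. So did H4C16 in H460 (3.55).

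In H1299 histone genes were lower from 2 to 12 h, by less than in H460 at 12 h, and none was lower at 24 h. Members lower than at 0 h numbered 14 at 2 h, 10 at 4 h, 19 at 8 h, 29 at 12 h and 0 at 24 h, where 7.93%, 5.83%, 9.54%, 13.1% and 3.21% of all genes were lower. Members higher numbered 1, 1, 2, 3 and 3 (5.88%, 10.0%, 15.0%, 16.6% and 8.53% of all genes). Median changes of the members were -0.23, -0.20, -0.24, -0.35 and 0.11, and at 12 and 24 h those of all genes were -0.06 and 0.00. Of the 29 members lower at 12 h, 1 was lower by at least 2-fold and 16 had arrays that did not overlap those at 0 h, counts not made over all genes. At 24 h, where limma called 0 members lower (0 also at an unadjusted p under 0.05), the 3 members called higher were H1-3 (0.49), H3C12 (0.58) and H4C9 (0.52). The early counts depended on H1299 0 h replicate 2, the narrow array: without it 23 members were lower at 2 h and 23 at 4 h. With single 0 h or 4 h arrays left out the 4 h count ranged from 4 to 23 (6 without 0 h replicate 1, 5 without replicate 3, 4 and 5 without 4 h replicates 1 and 3), and without any one 8 h array the 8 h count was 9 to 11. With array width in the model there were 24 at 4 h and 29 at 8 h, and 2 at 24 h.

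By class, 4 of 5 H1 genes, 7 of 14 H2A, 6 of 17 H2B, 4 of 8 H3 and 8 of 12 H4 genes were lower at 12 h in H1299. The class medians lay close together, at -0.35 for H1 and H2A, -0.27 for H2B, -0.30 for H3 and -0.41 for H4. H2BC19P (1.12), H3C8 (0.42) and H2AC11 (0.32) were higher. No member was called between 8 and 12 h in this line, where 0 genes of the table were called by limma (0.0% lower and 0.0% higher) and 994 genes had an unadjusted p under 0.05, 10 of them members that were lower. Between 12 and 24 h 30 members rose and 2, H2BC19P (-0.95) and H3C8 (-0.53), fell (3.24% and 5.11% of all genes), which made 30 of the 596 genes that rose (5.03%). Without H1299 24 h replicate 2 the 30 became 19.

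In H1299 H4C14 again had the largest fall of the members, with all times lower but 24 h. It read 8.56, 8.82 and 8.98 at 0 h (lowest, median, highest), 8.53, 8.19 and 8.20 at 2 h, 8.12, 8.17 and 8.05 at 4 h and 8.07, 7.88 and 8.12 at 8 h. At 12 h it read 7.78, 7.53 and 8.05 and at 24 h 8.89, 8.82 and 8.45. From 2 to 12 h every array lay below every 0 h array, and at 24 h the arrays spread over the 0 h range and under it. The changes were -0.50 at 2 h (adjusted p = 0.0039), -0.69 at 4 h (9.3e-05), -0.78 at 8 h (1.4e-05) and -1.02 ± 0.11 at 12 h (2.02-fold lower, adjusted p = 2.8e-07). H3C2 was also lower from 2 to 12 h. It read 10.06, 10.50 and 10.73 at 0 h (lowest, median, highest), 9.86, 10.12 and 10.19 at 2 h, 10.09, 10.21 and 10.09 at 4 h, 10.01, 10.08 and 10.22 at 8 h, 9.76, 9.56 and 9.93 at 12 h and 10.50, 10.45 and 10.20 at 24 h. Its 12 h arrays were the only group wholly below 0 h (-0.74 ± 0.11, adjusted p = 1.6e-05).

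H2BC10 stood well inside the measured range in H1299, at 5.50, 6.42 and 6.59 at 0 h (lowest, median, highest), and was lower at each time to 12 h. Its arrays read 5.55, 5.56 and 5.51 at 2 h, 5.60, 5.88 and 5.67 at 4 h, 5.64, 5.66 and 5.98 at 8 h, 5.35, 5.09 and 5.63 at 12 h and 6.49, 6.86 and 6.03 at 24 h. All arrays from 2 to 12 h were below 5 of the 6 arrays at 0 h and overlapped only the lowest, replicate 2, and the 12 h change was -0.95 ± 0.18 (1.93-fold lower, adjusted p = 0.00039). H2AC14 read 3.98, 4.55 and 5.24 at 0 h, 3.90, 4.75 and 4.85 at 2 h, 3.71, 3.72 and 3.57 at 4 h and 3.61, 3.89 and 3.86 at 8 h. It then read 3.24, 4.43 and 3.29 at 12 h and 4.33, 5.44 and 4.24 at 24 h. The 4 and 8 h arrays lay below 0 h, and 1 of the 12 h arrays did not. Its 12 h change of -0.88 ± 0.28 (adjusted p = 0.017) was not called without 12 h replicate 1 (-0.68) or 3 (-0.70), after quantile normalization (-0.74) or against 0 h replicates 1 to 3 only (-0.78).

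The linker gene H1-3 had its lowest mean at 4 h in H1299. It read 6.84, 6.88 and 7.06 at 0 h (lowest, median, highest), 7.01, 6.87 and 6.93 at 2 h, 6.43, 6.30 and 6.35 at 4 h and 6.60, 6.53 and 6.61 at 8 h. At 12 h it read 6.68, 6.29 and 6.74 and at 24 h 7.42, 7.37 and 7.45. All arrays from 4 to 12 h were below 0 h and all at 24 h above it, with changes of -0.56 ± 0.09 at 4 h (1.48-fold lower, adjusted p = 5.1e-05), -0.35 at 12 h (adjusted p = 0.0032) and 0.49 ± 0.09 at 24 h (adjusted p = 0.00033). The 12 h call was lost with array width in the model (-0.22) and without 12 h replicate 2 (-0.21). H1-5 read 11.66, 12.07 and 12.23 at 0 h, 11.55, 11.80 and 11.89 at 2 h, 11.74, 11.84 and 11.68 at 4 h, 11.65, 11.71 and 11.78 at 8 h, 11.37, 11.47 and 11.67 at 12 h and 12.18, 12.23 and 12.05 at 24 h. Its arrays sank to the lower edge of the 0 h range and overlapped it at 12 h (-0.52 ± 0.10, adjusted p = 0.00017).

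H2AC21 and H2BC14 in H1299 had 12 h arrays wholly below 0 h. H2AC21 read 9.79, 10.05 and 10.41 at 0 h (lowest, median, highest), 10.19, 9.44 and 9.58 at 2 h, 9.49, 9.50 and 9.65 at 4 h, 9.76, 9.70 and 9.77 at 8 h, 9.39, 9.35 and 9.43 at 12 h and 10.48, 10.47 and 10.33 at 24 h. It was lowest at 12 h (-0.68 ± 0.12, 1.60-fold lower, adjusted p = 0.00014) and at the top of its 0 h range at 24 h. H2BC14 read 10.86, 11.12 and 11.29 at 0 h, 10.85, 10.97 and 11.17 at 2 h, 10.84, 10.97 and 10.89 at 4 h, 10.60, 10.67 and 10.79 at 8 h, 10.39, 10.32 and 10.63 at 12 h and 11.02, 11.10 and 10.95 at 24 h. Its 8 and 12 h arrays lay below 0 h (at 12 h -0.65 ± 0.08, adjusted p = 2.5e-06). H2BC19P, the pseudogene that rose in H460, read 3.69, 4.17 and 4.80 at 0 h, 4.32, 5.00 and 4.93 at 2 h, 4.71, 4.80 and 5.26 at 4 h and 4.35, 5.55 and 5.20 at 8 h. It read 5.37, 5.28 and 5.44 at 12 h, all above 0 h, and 4.47, 4.16 and 4.60 at 24 h, inside the 0 h range (1.12 ± 0.23 at 12 h, 2.17-fold higher, adjusted p = 0.00055).

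The 5 members described above for 24 h in H460 had these levels in H1299. H1-2 read 8.11, 8.73 and 9.07 at 0 h (lowest, median, highest), 8.08, 8.46 and 8.65 at 2 h, 8.23, 8.32 and 8.33 at 4 h, 8.22, 8.33 and 8.26 at 8 h, 8.16, 8.01 and 8.26 at 12 h and 8.99, 9.10 and 8.83 at 24 h. H2AC6 read 8.31, 8.61 and 8.70 at 0 h, 8.11, 8.26 and 8.40 at 2 h, 8.27, 8.37 and 8.32 at 4 h, 8.22, 8.31 and 8.21 at 8 h, 8.20, 7.92 and 8.14 at 12 h and 8.77, 8.91 and 8.69 at 24 h. Both were called lower at 8 and 12 h (at 12 h -0.54 for H1-2, overlapping 0 h, and -0.49 for H2AC6, with no overlap), H2AC6 was called lower at 2 and 4 h too, and neither was called at 24 h. H2AC25 read 5.00, 5.17 and 5.56 at 0 h, 5.34, 4.65 and 4.87 at 2 h, 5.20, 5.13 and 4.89 at 4 h, 5.15, 5.08 and 4.95 at 8 h, 5.21, 4.72 and 5.05 at 12 h and 4.97, 5.31 and 5.30 at 24 h. H3C10 read 8.35, 8.71 and 8.86 at 0 h, 8.44, 8.15 and 8.58 at 2 h, 8.61, 8.76 and 8.63 at 4 h, 8.71, 8.68 and 8.90 at 8 h, 8.57, 8.56 and 8.77 at 12 h and 8.81, 9.10 and 8.79 at 24 h. H4C16 read 4.34, 4.72 and 5.12 at 0 h, 3.94, 4.69 and 4.44 at 2 h, 4.85, 5.02 and 4.24 at 4 h, 5.08, 4.88 and 4.66 at 8 h, 4.47, 4.48 and 4.70 at 12 h and 5.10, 4.84 and 5.23 at 24 h. These 3 overlapped 0 h at every time and were not called at any.

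Set side by side at 12 h, 27 members were lower in both lines, which is 27 of the 41 in H460 and 27 of the 29 in H1299. That overlap was not counted over all genes. The difference between the lines was tested as the H460 change minus the H1299 change. At 12 h 21 members fell further in H460 and 1 went the other way (3.47% and 5.21% of all genes), namely 3 H1, 7 H2A, 2 H2B, 4 H3 and 5 H4 genes and, higher, H2BC21. By value alone, 46 of the 56 members had the lower change in H460, a count also not made over all genes. The largest differences were -1.26 ± 0.20 for H2AC21 (adjusted p = 3.5e-05), -1.20 ± 0.14 for H1-3 (7.5e-08) and -1.15 ± 0.20 for H1-5 (0.0001). H3C12 (-1.14), H3C2 (-1.08), H2BC14 (-1.05), H4C14 (-1.03) and H4C2 (-1.0) came next.

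**Figure D3:**
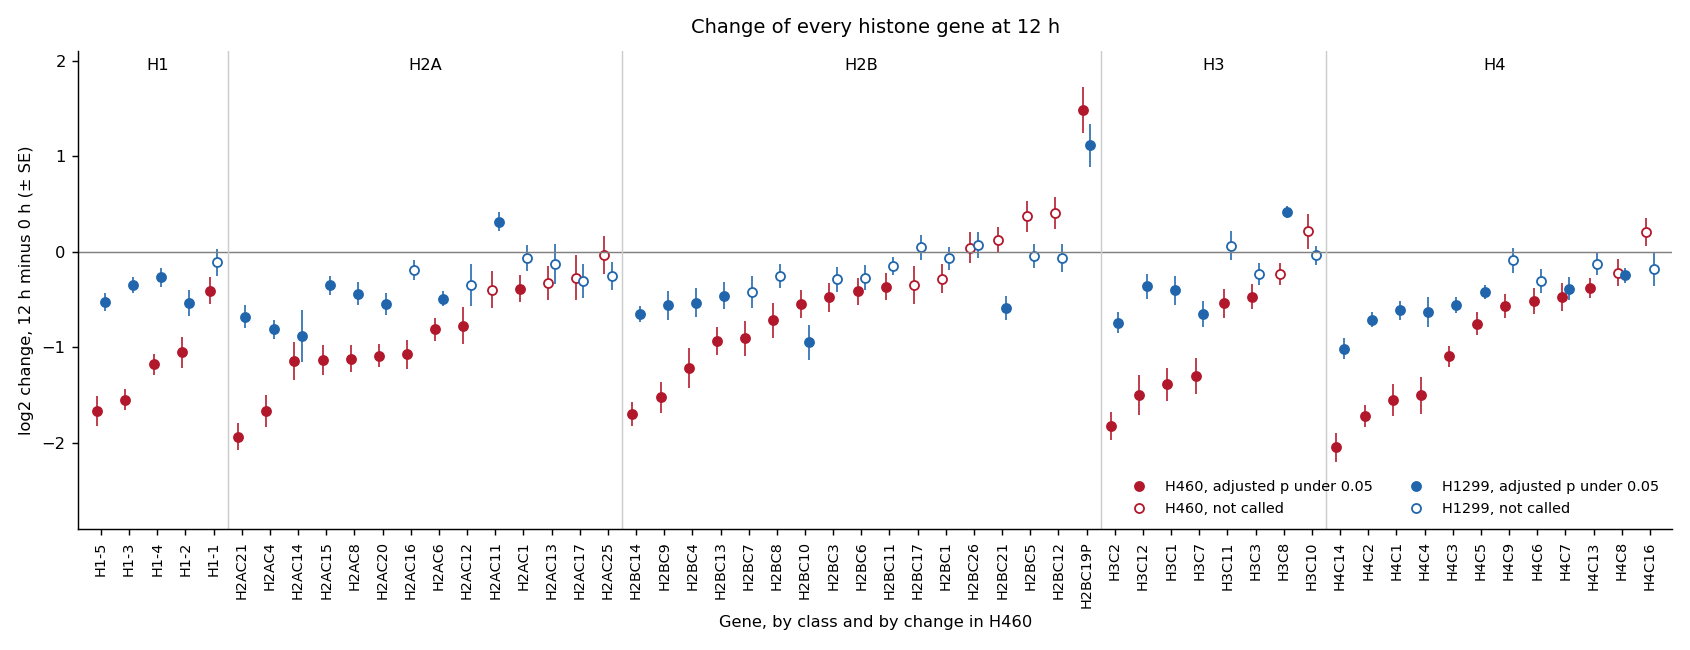
Change from 0 to 12 h (log2, vertical axis) of every member in H460 and in H1299, grouped by class along the horizontal axis, with 1 point a gene and line, bars of 1 model standard error and filled points for called genes. The H460 points of the H1 class run from -1.67 to -0.41, and H2BC19P lies at 1.48 in H460 and 1.12 in H1299.

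H2BC21 was the member whose 12 h difference ran against the others. In H460 it read 6.94, 7.27 and 7.54 at 0 h (lowest, median, highest), 7.12, 7.32 and 7.53 at 2 h, 7.23, 7.34 and 7.17 at 4 h, 7.45, 7.39 and 7.69 at 8 h, 7.0, 7.36 and 7.68 at 12 h and 7.53, 7.38 and 7.65 at 24 h. In H1299 it read 6.88, 7.27 and 7.66 at 0 h, 7.21, 6.96 and 7.07 at 2 h, 6.86, 7.16 and 6.87 at 4 h, 6.98, 6.94 and 6.75 at 8 h, 6.65, 6.61 and 6.82 at 12 h and 7.23, 7.41 and 6.91 at 24 h. Every group overlapped 0 h in H460, and in H1299 the 12 h arrays lay below it. The 12 h change was 0.12 ± 0.14 in H460 (adjusted p = 0.51) and -0.59 ± 0.12 in H1299 (1.50-fold lower, adjusted p = 0.00098), a difference of 0.71 ± 0.19 (adjusted p = 0.015). The difference was not called without H460 12 h replicate 3 (0.54) or against 0 h replicates 1 to 3 only (0.60).

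The lines also differed at 4 h, in the opposite direction. There 8 members had the higher change in H460 and 0 the lower (3.21% and 5.33% of all genes), with 1 H1, 4 H2A, 2 H2B and 1 H4 gene among them. These were H2AC14 (1.28 ± 0.37, adjusted p = 0.021), H4C14 (1.05), H2AC21 (0.98), H1-3 (0.80), H2BC9 (0.75), H2AC6 (0.66), H2AC4 (0.64) and H2BC11 (0.60). At 2 h 4 were higher and 0 lower (10.2% and 18.5% of all genes), and at 8 h 2 higher and 0 lower (6.56% and 3.55%), H2BC12 (0.79) and H2BC21 (0.67). The higher counts at 2 and 8 h were smaller shares than those of all genes, and at 8 h the H4 class had a median difference of -0.15. At 24 h 9 had the lower change in H460 and 0 the higher (4.70% and 7.75%), of which 5 were H4 genes. H4C1 (-0.85), H4C14 (-0.80) and H2AC21 (-0.78) led them. Apart from 12 h these counts shifted with single arrays: 0 at 2 h without H460 2 h replicate 3 and 1 or 2 without a 2 h array of H1299, 4 or 5 at 4 h without H460 4 h replicate 2 or H1299 4 h replicate 2 or 3, 1 to 8 at 8 h (8 without H1299 0 h replicate 2, 7 without H460 0 h replicate 6), and 4 or 5 at 24 h without H460 24 h replicate 2 or H1299 24 h replicate 1 or 2.

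Before irradiation the lines already differed in most members. At 0 h 29 members were lower in H460 than in H1299 and 10 higher, and 17 were not called, where 29.1% of all genes were lower and 26.0% higher. H2B had 10 lower and 2 higher, H2A 8 and 2, H3 4 and 2, H4 4 and 3, and H1 3 and 1. The largest gap was in H3C8, whose lowest, median and highest values were 4.21, 4.28 and 4.41 in H460 and 8.37, 8.41 and 8.55 in H1299 (difference -4.14 ± 0.08, adjusted p = 4.3e-19). H2AC11 (4.46, 4.99 and 5.49 against 7.99, 8.17 and 8.47) and H2BC11 (4.64, 4.74 and 5.00 against 7.08, 7.41 and 7.54) were likewise apart with no overlap, by -3.21 ± 0.14 and -2.58 ± 0.10. H2BC10 (-2.43 ± 0.17) and H1-5 (-1.50 ± 0.13) were also lower in H460. Higher in H460 were H3C1 (6.80, 7.10 and 7.46 against 5.22, 5.45 and 5.66, difference 1.67 ± 0.12), H4C14 (1.52 ± 0.09), H2AC25 (1.45), H1-3 (1.39), H2AC21 (1.30), H2BC26 (1.22) and H4C1 (1.09).

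**Figure D4:**
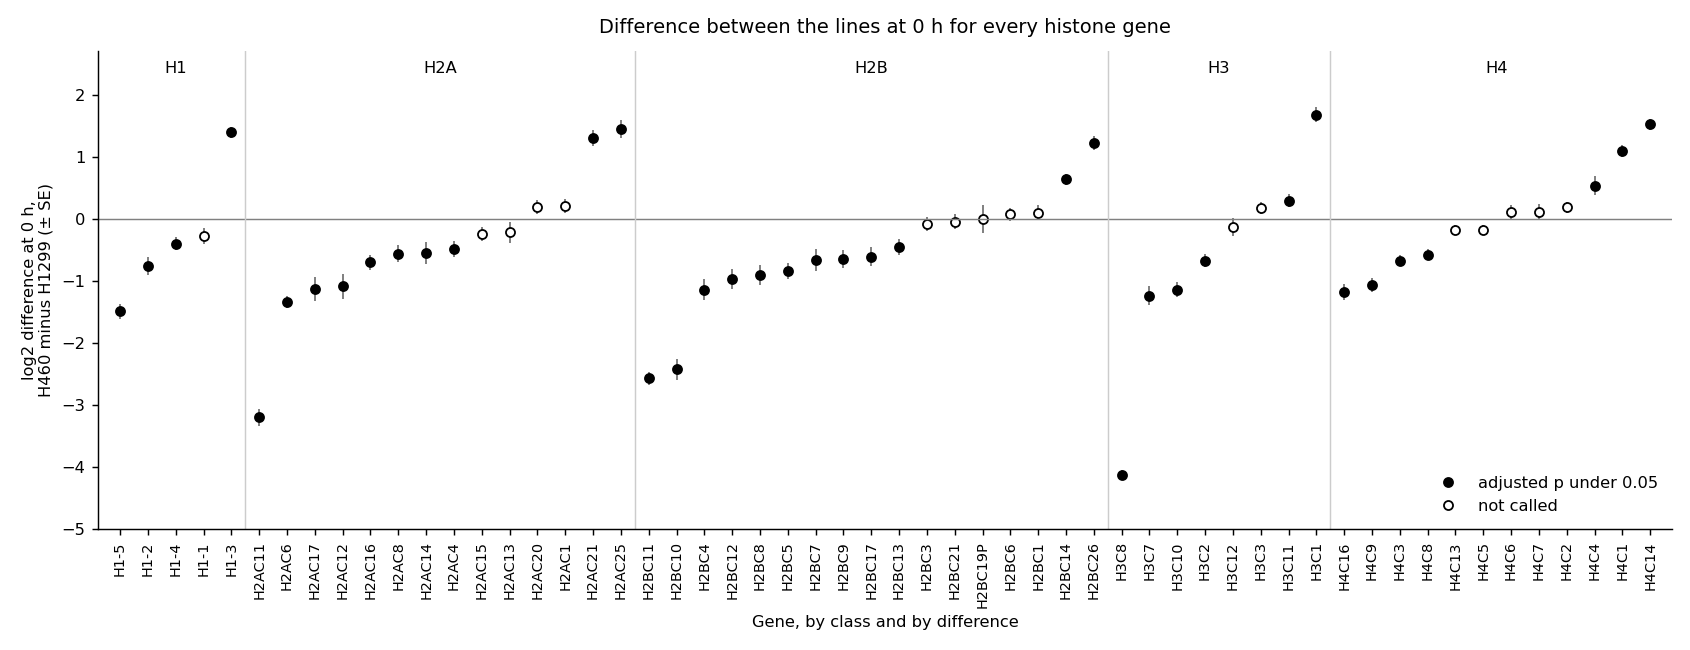
Difference between the lines at 0 h (H460 minus H1299, log2, vertical axis) for every member, grouped by class along the horizontal axis, with bars of 1 model standard error over 6 arrays a line and filled points for called genes. H3C8 lies lowest at -4.14 and H3C1 highest at 1.67.

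Many H2A and H2B genes stand head to head and share the DNA between their starts. Among members with a promoter entry there were 9 such pairs, with 214 to 247 bases between the starts. At 0 h both genes of 6 pairs differed between the lines, and in 5 of the 6 in the same direction, as with H2AC11 and H2BC11 (-3.21 and -2.58) and H2AC25 with H2BC26 (1.45 and 1.22). The exception was H2AC14 (-0.55) with H2BC14 (0.63). Of all 56 members, 29 were lower in H460 at 0 h and 10 higher. Whether the 2 genes of a pair agreed more often than other members was not tested. At 12 h in H460, where 41 of all 56 members were lower, both genes were lower in 3 pairs, the H2A gene alone in 2, the H2B gene alone in 2 and neither in 2. H2AC20 and H2BC21, with 235 bases between their starts and the promoter printed above between them, gave -1.09 and 0.12 in H460 but -0.55 and -0.59 in H1299. The 3 arrays of H2AC20 at 12 h in H460 read 10.18, 10.31 and 10.18, below all its 0 h arrays (11.04 to 11.74), while those of H2BC21 spread over its 0 h range.

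Over the whole course a quadratic regression on hours, the kind of test the study names, called 33 members in H460 (4 H1, 7 H2A, 6 H2B, 5 H3 and 11 H4), where 41.9% of all genes were called. In H1299 it called 35 members (4 H1, 8 H2A, 11 H2B, 5 H3 and 7 H4), where 36.5% were called. With the square root of hours in place of hours the H460 count was 15, and with array width in the model 19.

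The genes that make, process and package histones and copy DNA were read from lists. Of 9 variant histones, which are expressed outside S phase as well, 2 were lower (22.2%, against 16.8% of all genes) and 0 higher at 12 h in H460, and 5 (55.6%, against 13.1%) and 0 in H1299. H2AX, which is phosphorylated at DNA breaks and whose message can end in a stem-loop too, fell by 0.74 ± 0.12 at 12 h in H460 (adjusted p = 0.0001) and by 0.32 in H1299, and the difference between the lines was not called (-0.42, adjusted p = 0.0538). H3-5 fell by 0.39 and 0.21. H3-3B, which encodes the replacement histone H3.3, changed by -0.23 (not called) in H460 and fell by 0.19 in H1299. H2AZ1 (-0.11 and -0.09) was not called in either. In H460 3 variants were lower at 2 h (33.3%, against 23.7% of all genes) and 5 at 24 h (55.6%, against 12.4%), and the 24 h falls included H2AX (-0.53), H3-3B (-0.39) and H2AZ1 (-0.30).

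Of 15 genes for histone transcription and 3′ end processing, 0 were lower and 3 higher at 12 h in H460 (20.0%, against 16.7% of all genes), and 2 and 6 in H1299 (13.3% and 40.0%, against 13.1% and 16.6%). NPAT, the co-activator of histone transcription, changed by 0.04 in H460 (not called) and rose by 0.73 ± 0.09 in H1299 (adjusted p = 8.9e-07), a difference of -0.69 (adjusted p = 0.00388). CASP8AP2 (FLASH), its partner at the histone locus, changed by 0.17 in H460 (not called) and rose by 0.75 ± 0.12 in H1299 (adjusted p = 4.4e-05), and the difference of -0.57 was not called (adjusted p = 0.0607). SLBP changed by -0.08 in H460 (not called) and fell by 0.25 in H1299 (adjusted p = 0.034). Of 15 genes for histone message decay, 0 were lower and 6 higher (40.0%) at 12 h in H460 and 2 (13.3%) and 7 (46.7%) in H1299, against the same shares of all genes. The rises included TUT4, which adds uridines to these messages (0.48 and 0.68), the decapping enzyme DCP2 (0.32 and 0.73), the exonuclease XRN1 (0.48 and 0.77) and the kinase ATR (0.52 and 0.78).

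Of 16 genes of cyclin E-CDK2 and E2F control, 9 were lower (56.2%) and 1 higher (6.25%) at 12 h in H460, against 16.8% and 16.7% of all genes. In H1299 4 of 16 were lower and 6 higher (37.5%), against 13.1% and 16.6%. The 1 that rose in H460 was CDKN1A, the CDK inhibitor p21 (1.07), which changed by 0.06 in H1299 (not called). Cyclin E2 (CCNE2) fell by 1.19 in H460 at 12 h, after a fall of 1.79 at 8 h, and changed by -0.25 in H1299 (not called). Cyclin E1 (CCNE1) fell in both lines (-0.50 and -0.74), as did CDC25A (-0.57 and -0.45) and E2F1 (-0.40 and -0.58), while E2F8 fell by 1.0 in H460 and changed by -0.14 in H1299 (not called). The differences between the lines were called for CDKN1A (1.0), CCNE2 (-0.94) and E2F8 (-0.86). Of 22 histone chaperones, 4 were lower (18.2%) and 2 higher (9.09%) at 12 h in H460 and 3 (13.6%) and 6 (27.3%) in H1299, so both lower shares were near those of all genes. Both lines had falls of CHAF1A (-0.57 and -0.48) and CHAF1B (-0.66 and -0.49), subunits of the factor that loads histones behind the fork, and of DNAJC9 (-0.59 and -0.20), and a rise of ATRX (0.50 and 0.86).

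Of 39 genes of DNA synthesis, the lower and higher counts in H460 were 25 and 1 at 2 h, 1 and 0 at 4 h, 9 and 1 at 8 h, 22 and 0 at 12 h and 24 and 0 at 24 h, with medians of -0.31, -0.11, -0.15, -0.39 and -0.39. In H1299 they were 7 and 2, 5 and 4, 13 and 4, 19 and 3, and 7 and 1, with a 12 h median of -0.18. In H460 the lower genes made up 64.1% of the list at 2 h (23.7% of all genes), 56.4% at 12 h (16.8%) and 61.5% at 24 h (12.4%). In H1299 they made up 48.7% at 12 h (13.1%). Of all genes, 1.55% and 6.22% were lower at 4 and 8 h in H460. In H1299 7.93%, 5.83%, 9.54% and 3.21% were lower at 2, 4, 8 and 24 h. The shares of all genes that were higher from 2 to 24 h were 16.7%, 1.37%, 10.7%, 16.7% and 16.2% in H460. In H1299 those shares were 5.88%, 10.0%, 15.0%, 16.6% and 8.53%. GINS2 (-0.64 and -0.74), MCM5 (-0.72 and -0.46), FEN1 (-0.80 and -0.67) and UNG (-0.75 and -0.43) fell in both lines at 12 h. The 12 h median of the histone genes in H460 was -0.74, and the return of the histone genes between 12 and 24 h, with 27 of 56 higher, stood beside 1 of the 39 DNA synthesis genes higher and 1 lower. In the step from 8 to 12 h in H460, which called 25 of the 56 histone genes, limma called 0 of the 116 genes of these 6 lists. At an unadjusted p under 0.05 in limma, 25 of the 116 were lower and 3 higher. Of all 18404 genes, 1656 passed that unadjusted threshold in either direction, a smaller share than in the lists.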

How the data were processed

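RNA from H460 and H1299 was hybridised to 42 Affymetrix whole-transcript arrays, with 100 ng of total RNA each, per the labels' protocols. The authors deposited log2 expression values, 1 per probe set and array, and the normalization behind them is not given in the sources used here. They run from 1.60 to 13.92 in the genes used, and came without detection calls. Of 32321 table rows, 19158 had 1 gene symbol in the platform annotation, 1388 had several and 11775 were outside it. One row a gene was kept, that with the highest mean, which left 18404 genes, with no filter on dim genes. No arrays were identical (0 pairs).

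Each line's changes were contrasts in a model with 1 mean per time over its 21 arrays (lmFit, then eBayes with trend, in limma 3.58.1 under R 4.3.3). Differences between the lines used all 42 arrays, and the lines at 0 h the 12 arrays there. Quadratic regression used hours and its square. All tests were two-sided, with Benjamini-Hochberg adjustment over all genes called under 0.05. Standard errors given after ± come from the model, and precision is limited by how many arrays a group has. The scripts were tested on simulated data. The members, the gene lists and the naming rule were chosen with earlier results of these data known. By that rule values are given at every time (every array, or the lowest, median and highest of the 6 at 0 h), per class, for the largest called fall in each line, for members called against their class in H460 at 12 or 24 h and for the largest differences between the lines at 12 h, and up to 4 genes a list are named beside a few always named. Other settings were median centring, quantile normalization, array width as a covariate, robust eBayes, all 42 arrays in 1 fit, the mean of a gene's rows, 0 h replicates 1 to 3 or 4 to 6 only, the dimmest 33.3% of genes left out, the square root of hours or 1 mean per time, replicate number as a block, and each array left out in turn. Some genes are not analysed here. Array levels of different genes are not compared.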

Additional observations from a re-analysis of the deposited data

Results flagged for a closer look

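Some groups held an array far from the other 5. H1-2 at 0 h in H460 had a highest array at 8.56 with the nearest at 7.91, a gap of 0.749 of the group's range. H2BC10 at 0 h had a lowest array at 3.29 in H460 (nearest 3.90, gap 0.788) and at 5.50 in H1299 (nearest 6.32, gap 0.749), the latter on the narrow replicate 2. H4C16 at 0 h in H460 had a highest array at 3.96 (nearest 3.54, gap 0.704). In all, 13 of the 112 groups of members at 0 h (11.6%) had such a gap, where chance gives about 1 in 20 for a single group. The groups share the same arrays, so 1 shifted array can flag many members, and the 2 shares were not compared by a test.

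The change differed between the lines in 4 members at 2 h, 8 at 4 h, 2 at 8 h, 22 at 12 h and 9 at 24 h, each by a test of the difference itself. Among members whose values are given at every time, the 12 h difference (H460 minus H1299, log2) was -1.26 for H2AC21, -1.20 for H1-3, -1.15 for H1-5, -1.08 for H3C2, -1.05 for H2BC14, -1.03 for H4C14 and 0.71 for H2BC21. For all of these but H2BC21 the 12 h change was lower in H460 than in H1299.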

How the results depend on the processing

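At 12 h no called change or line difference of a named member and no class median turned its direction under any setting tried. Directions at the other times were not compared across settings. The uncalled 12 h changes in H460 of H2AC25 (-0.49 to 0.03) and H3C10 (-0.11 to 0.32) did change sign across settings, and with single arrays left out so did those of H2AC25 and H2BC21 in H460 and the H2AC14 difference between the lines. In H460 29 to 43 members were lower at 12 h across settings, 22 to 28 lower at 12 h than at 8 h and 26 to 31 higher at 24 h than at 12 h, and in H1299 22 to 33 were lower at 12 h. With array width in the model the members lower in H460 were 0 at 2 h, 0 at 8 h and 4 at 24 h, those higher at 24 h were 0, and the quadratic count was 19. In H1299 they were 24 at 4 h, 29 at 8 h and 2 at 24 h, and the differences between the lines numbered 10 at 2 h, 14 at 4 h and 4 at 8 h. H4 genes lower in H460 were then 0 at 8 h, 6 at 12 h and 2 at 24 h, and the 12 h medians were -1.50 (H1), -1.21 (H2A), -1.09 (H3) and -0.75 (H4) in H460 and -0.55 (H2A), -0.46 (H2B) and -0.52 (H4) in H1299. Quantile normalization gave 5 lower at 2 h in H460, 9 differences at 2 h and an H1 median of -1.33. All 42 arrays in 1 fit gave 5 at 2 h in H460 and 6, 6 and 11 at 2, 4 and 8 h in H1299. Using 0 h replicates 4 to 6 only gave 4, 4 and 8 lower at 2, 8 and 24 h in H460, 3 H4 genes at 8 h, differences of 1 at 2 h and 4 at 4 h, and an H2A median of -1.05. Using 0 h replicates 1 to 3 only gave 9, 5 and 10 lower at 2, 4 and 8 h in H1299, differences of 2, 1 and 3 at 2, 8 and 24 h, and medians of -0.82 (H460 H2A) and -0.34 (H1299 H2B). Without the dimmest 33.3% of genes, which leaves 43 members, there were 4 differences at 8 h and medians of -1.36 (H1), -1.08 (H2A), -1.35 (H3) and -1.30 (H4) in H460 and -0.34 (H2B) and -0.59 (H4) in H1299. The square root of hours gave a quadratic count of 15 in H460. Except where fewer genes or arrays were used, the cause was not tested. Counts under other settings and with arrays left out are of members only, and the shares of all genes called there are not given here.

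Same-numbered arrays did not clearly deviate together. Deviations of replicates 1 to 3 from their group mean were correlated between times of a line, and same-numbered arrays had mean correlations between -0.24 and 0.10. Such values cannot show whether the cultures were paired. Replicate numbers above 3 occur only at 0 h, so within a line their block terms take up those arrays. The block setting is therefore not separate from using 0 h replicates 1 to 3 only. With the replicate block 36 members were lower at 12 h in H460 and 22 in H1299, and 8, 5 and 10 at 2, 4 and 8 h in H1299. Differences then numbered 2, 1 and 3 at 2, 8 and 24 h, and medians were -0.82 (H460 H2A) and -0.34 (H1299 H2B). Under this setting H2BC10 at 12 h in H460 (-0.41), H2AC14 at 12 h in H1299 (-0.78) and the H2BC21 difference (0.60) were not called. These values are the same as against 0 h replicates 1 to 3 only. The loss of these calls therefore cannot be put down to blocking rather than to fewer 0 h arrays.

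Leaving out each array in turn, members lower in H460 ranged from 1 to 9 at 2 h, 4 to 8 at 8 h, 34 to 41 at 12 h and 7 to 14 at 24 h, and H4 genes from 3 to 6 at 8 h and 4 to 8 at 24 h. In H1299 they ranged from 10 to 23 at 2 h, 4 to 23 at 4 h, 9 to 27 at 8 h and 20 to 34 at 12 h, and those higher at 24 h than at 12 h from 19 to 33. Differences ranged from 0 to 6 at 2 h, 4 to 11 at 4 h, 1 to 8 at 8 h, 18 to 22 at 12 h and 4 to 12 at 24 h. The H1299 medians at 12 h ranged from -0.50 to -0.31 (H2A) and from -0.45 to -0.39 (H4).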
